A study of Mus musculus with 6 samples.

Results

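A set of 9 genes that carry sympathetic and thyroid hormone signals into heat-producing fat was followed in mouse dorsal skin after topical rebamipide, namely the adrenoceptors Adrb1, Adrb3, Adra1a and Adra2a, the protein kinase A subunit Prkar2b, the phosphodiesterase Pde3b, the deiodinase Dio2 and the thyroid hormone receptors Thra and Thrb. They were taken by symbol, as 9 of the 21959 genes in the deposited table, and all 9 passed the expression filter that left 14875 genes for testing. Of the 9, 7 genes (Adrb1, Adrb3, Adra1a, Prkar2b, Pde3b, Dio2 and Thra) were higher in rebamipide-treated skin and 0 were lower at an adjusted p under 0.05 by edgeR's quasi-likelihood test. Over all genes tested the same rule called 14.1% higher and 6.51% lower. In the 7 genes every TMM-normalized CPM value in rebamipide libraries exceeded every one in vehicle libraries, which held for 24.5% of all genes, and the opposite for 24.0%. In FPKM, which is not scaled that way, Dio2 overlapped, with 1.42 in rebamipide replicate 1 and 1.72 in vehicle replicate 3. The cutoffs of the study were a p under 0.05 before adjustment and a log2 fold change beyond 1 in either direction. Applied to the edgeR fit, they passed the same 7, Thra narrowly at 1.03, and 28.8% of all genes. The study named DESeq2 as its test, with which 32.7% of all genes passed here. Adra2a and Thrb did not pass, and their groups overlapped.

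RNA was sequenced from full-thickness dorsal skin of male C57BL/6 mice that were 7 weeks old. Their backs had been shaved in what the study gives as the resting phase of the hair cycle. The control mice received vehicle, a mixture of 30% dipropylene glycol and 70% water, and the treated mice received 3% rebamipide, a gastroprotective drug, on the skin each day for 7 days. There were 3 mice in each group and no genetic change in either. The markers go against this description of the skin in some libraries. In rebamipide replicate 3 the epidermal genes Krt5 and Krt1 had 4 and 2 reads and Krt14, Flg and Ivl had 0, against 26099 to 77535 reads of Krt5 and Krt14 in the vehicle libraries, so that library was close to devoid of epidermal RNA. Vehicle replicates 1 and 2 held 6593 and 3050 CPM (counts scaled to library size) of Krt71, a keratin of the growing hair follicle, and 8338 and 6065 CPM of Tchh, trichohyalin, against 71.2 and 104 CPM in vehicle replicate 3. Results with rebamipide replicate 3 and with each other library left out are given below. In bulk RNA, more cells of a type and more RNA per cell cannot be told apart.

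Heat production in brown and beige fat is driven by noradrenaline from sympathetic nerve endings. Beta adrenoceptors couple through the stimulatory G protein to adenylyl cyclase, and the cAMP it makes releases the catalytic subunits of protein kinase A from their regulatory subunits, which leads to lipolysis and to transcription of Ucp1, the uncoupling protein of brown fat mitochondria. Alpha-2 adrenoceptors couple to inhibitory G proteins and lower cAMP, and phosphodiesterases such as Pde3b degrade it. The second input is local: Dio2 converts thyroxine to the active hormone triiodothyronine inside the cell, where the receptors encoded by Thra and Thrb bind it.

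Dio2 is known as a gene whose transcription responds to cAMP, and the 250 bases before its start site are therefore shown, with those of Adrb1 for comparison. Both were taken from RefSeq on GRCm38.p6, which provided a window of 250 bases before and 50 after the start for 5 of the 9 genes (Adrb1, Adra2a, Prkar2b, Dio2 and Thrb, with 7 windows in all). Capitals mark the letters TGACG, the core of the cAMP response element, on either strand, or the full palindrome TGACGTCA, which contains the core on both strands. The Dio2 stretch lies at chr12:90739039-90739288 on the minus strand and the Adrb1 stretch at chr19:56721867-56722116 on the plus strand.
Dio2: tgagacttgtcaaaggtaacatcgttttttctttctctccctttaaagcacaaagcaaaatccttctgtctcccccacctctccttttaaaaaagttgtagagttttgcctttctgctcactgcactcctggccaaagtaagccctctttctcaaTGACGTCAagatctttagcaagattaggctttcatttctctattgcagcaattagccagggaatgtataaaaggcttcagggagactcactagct
Adrb1: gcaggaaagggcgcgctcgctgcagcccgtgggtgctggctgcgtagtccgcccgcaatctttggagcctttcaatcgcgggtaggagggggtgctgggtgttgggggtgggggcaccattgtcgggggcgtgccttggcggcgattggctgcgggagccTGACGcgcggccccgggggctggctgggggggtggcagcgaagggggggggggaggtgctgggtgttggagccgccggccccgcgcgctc
The full element stood at bases -95 to -88 of Dio2 and in none of the other 6 windows, and 1.79% of the 32851 windows of all genes held it. The core alone stood at -90 to -86 in Adrb1, at -69 to -65 in Adra2a and at -56 to -52 in 1 of the 2 windows of Thrb, and 20.8% of all windows held it. AGGTCA, the hexamer that nuclear receptors bind, was present in the same Thrb window at -184 to -179, against 16.3% of all windows. None of the 7 windows held 2 copies of AGGTCA in direct repeat with 4 bases or 1 base between, which 0.0152% and 0.0396% of all windows did. A match of letters describes the window only.

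Total counts were 38676018 to 39915276 in the vehicle group and 32709801 to 34706852 in the rebamipide group, and genes of the mitochondrial genome took 2.59% to 5.36% and 13.3% to 22.0% of them. Counts were therefore scaled with edgeR's TMM factors and are given as normalized CPM. The median gene tested had a log2 fold change of -0.18 with these factors and of -0.78 with total counts alone. Adipocyte markers summed to 2985 to 9446 CPM in vehicle and 18860 to 37090 CPM in rebamipide libraries, with 7 of 12 called higher, and brown adipocyte markers to 219 to 406 CPM and 5098 to 12890 CPM, with 7 of 10 called higher. Among the latter, Ucp1 had 0 counts in every vehicle library and 2668, 8591 and 5745 CPM in the rebamipide libraries, while Zic1 and Lhx8, 2 transcription factors of brown fat, were not called. Elovl3, a fatty acid elongase of brown fat and sebaceous glands, was not called either and lay in the other direction, at 176, 129 and 238 CPM in vehicle and 82.3, 83.1 and 33.3 CPM in rebamipide libraries (log2 fold change -1.45, SE 0.43, edgeR adjusted p = 0.0575). No keratinocyte, growing hair follicle or fibroblast marker was called in either direction. Basal keratinocyte markers summed to 2174 to 3690 CPM in vehicle and to 1086, 692 and 144 CPM in rebamipide libraries, and of the last value Itga6, an integrin also made by other cells, took 129 CPM and Itgb4 13.3 CPM. Suprabasal keratinocyte markers summed to 985, 4815 and 6143 CPM in vehicle and to 1571, 1053 and 5.61 CPM in rebamipide libraries. In the same order of groups, growing hair follicle markers to 260 to 22740 CPM against 0.458 to 1043 CPM, and fibroblast markers to 12290 to 18760 CPM against 15790, 3711 and 1971 CPM. Fast muscle markers ranged from 5419 to 26860 CPM in vehicle and from 276 to 34210 CPM in rebamipide libraries, and none was called. Slow muscle markers, of which 4 of 6 were called higher, summed to 7.74, 13.5 and 2.07 CPM in vehicle and to 290, 129 and 7.02 CPM in rebamipide libraries. Endothelial markers, of which 4 of 8 were called higher, summed to 265 to 667 CPM in vehicle and 1241 to 1771 CPM in rebamipide libraries. Melanocyte markers, of which 1 of 6 was called lower, summed to 1051, 287 and 56.2 CPM against 131, 18.0 and 9.23 CPM. Of 8 Schwann cell and nerve markers 1 was called higher, as was 1 of 8 smooth muscle and pericyte markers. No leukocyte marker was called. The part of these differences in the results below was not tested. Exceptions are the levels relative to the adipocyte lists and the fits with fast or slow muscle markers as a covariate. Those fits called 4 and 6 of the 9 genes higher, and 10% and 11.8% of all genes. Nothing in the labels ties the replicate numbers of the groups to each other.

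Adrb3 encodes the beta-3 adrenoceptor, the receptor through which noradrenaline acts on mature rodent adipocytes. It lies on chromosome 8 from 27715804 to 27740644 on the minus strand in the deposited table (gene ENSMUSG00000031489). Its normalized level was 8.66, 16.3 and 45.3 CPM in the vehicle libraries and 112, 134 and 192 CPM in the rebamipide libraries. The groups did not overlap, and the vehicle libraries themselves spread widely, in the same order as their summed adipocyte markers. The mean rose from 23.4 ± 19.3 to 146 ± 41 CPM (SD, n = 3 each), a log2 fold change of 2.64 (SE 0.64) with an edgeR adjusted p of 0.0362. With a library left out, edgeR gave 2.2 to 3.55, the latter without vehicle replicate 3. Its adjusted p was then 0.0233 to 0.144, and 2 of the 6 fits called Adrb3. Read counts were 433 to 2120 in vehicle and 3417 to 5035 in rebamipide libraries.

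Adrb1, the beta-1 adrenoceptor, is better known from the heart and from brown fat precursor cells. It lies on chromosome 19 from 56710631 to 56721545 on the plus strand (ENSMUSG00000035283). It was low in vehicle skin, with 64, 62 and 80 reads or 1.28, 1.26 and 1.71 CPM, and reached 12.7, 30.3 and 29.1 CPM in rebamipide-treated skin. The vehicle libraries lay close together, and rebamipide replicate 1 stood below the other two. The mean rose from 1.42 ± 0.25 to 24.1 ± 9.9 CPM, 16.98-fold, with a log2 fold change of 4.08 (SE 0.44) and an edgeR adjusted p of 0.00939.

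Adra1a, the alpha-1A adrenoceptor that couples to Gq and calcium release, had the largest change of the 9 genes. It lies on chromosome 14 from 66872700 to 67008617 on the plus strand (ENSMUSG00000045875). The vehicle libraries held 0.860, 2.70 and 3.76 CPM and the rebamipide libraries 65.0, 160 and 172 CPM. All rebamipide libraries were far above all vehicle libraries, with replicate 1 again the lowest of its group. The log2 fold change was 5.76 (SE 0.73), the edgeR adjusted p was 0.00993, and the ratio of the mean CPM was 54.2. By log2 fold change Adra1a stood at rank 26 of the 14875 genes.

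Adra2a, the alpha-2A adrenoceptor that restrains cAMP and noradrenaline release, did not follow the other 3 receptors. It lies on chromosome 19 from 54032582 to 54037413 on the plus strand (ENSMUSG00000033717). Its level was 2.16, 3.73 and 4.42 CPM in vehicle and 3.75, 0.701 and 0.305 CPM in rebamipide libraries, the last from 8 reads. Rebamipide replicate 1 lay among the vehicle libraries and the other two lay below them. The log2 fold change was -1.11 (SE 0.92, edgeR adjusted p = 0.391). Without rebamipide replicate 1 it was -2.76, with an adjusted p of 0.0307 by edgeR and of 7.32e-05 by DESeq2, so this library decides the call. That library also had the highest fibroblast, keratinocyte and hair follicle marker sums of its group.

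**Figure D1:**
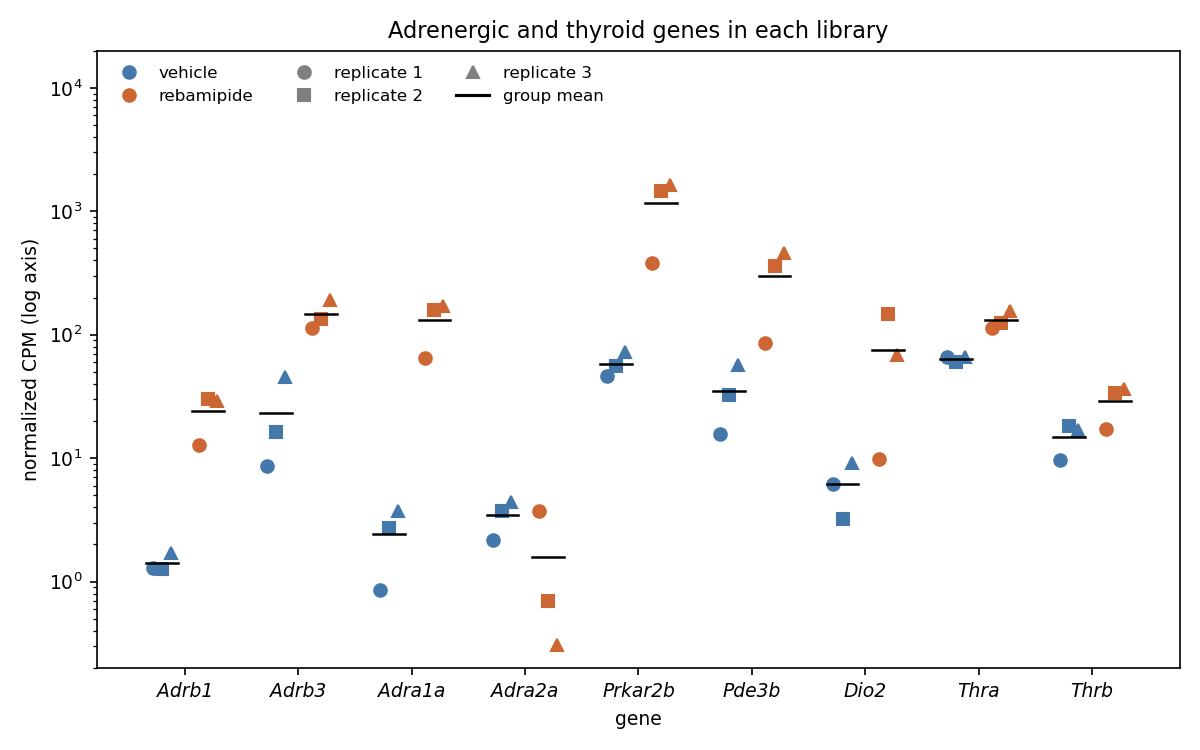
Normalized CPM on a log axis for the 9 genes, with a point for each library (blue vehicle, orange rebamipide, marker shape for the replicate number) and a black line at the group mean. The 2 colours do not overlap for 7 genes, whereas for Adra2a and Thrb rebamipide replicate 1 lies within the vehicle range.

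FPKM, which takes gene length into account, allowed the receptors to be compared with each other within a library. Adrb1 and Adrb3 together summed to 3.77, 6.43 and 16.9 FPKM in vehicle and 34.4, 36.4 and 49.5 FPKM in rebamipide libraries. The 3 alpha-1 receptors summed to 0.479, 1.21 and 2.07 FPKM in vehicle and 10.9, 17.1 and 19.8 FPKM in rebamipide libraries. The 3 alpha-2 receptors summed to 0.642, 1.33 and 1.49 FPKM in vehicle and 0.917, 0.301 and 0.235 FPKM in rebamipide libraries. The first 2 sums were thus higher in every rebamipide library than in any vehicle library, and the alpha-2 sums overlapped. These sums were formed after the levels had been seen and were not tested.

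Among the other alpha adrenoceptors, 4 genes, 1 was called higher and 0 lower. This count and those of the lists that follow stand against the 14.1% of all genes called higher and the 6.51% called lower. The gene was Adra1d, a second alpha-1 receptor, at 0.120, 0.406 and 0.919 CPM in vehicle and 6.98, 8.46 and 12.3 CPM in rebamipide libraries (log2 fold change 4.26, SE 0.77, edgeR adjusted p = 0.0177). Adra1b, the third alpha-1 receptor, was at 0.720, 1.54 and 2.69 CPM in vehicle and 2.14, 0.390 and 0.153 CPM in rebamipide libraries and was not called (log2 fold change -0.87, SE 1.00, edgeR adjusted p = 0.537). Without rebamipide replicate 1 the log2 fold change of Adra1b was -2.59 (edgeR adjusted p = 0.0723, DESeq2 adjusted p = 0.0115), and without vehicle replicate 3 it was -0.29. Adra2b and Adra2c had group means from 0.329 to 0.577 CPM and were not called.

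**Figure D2:**
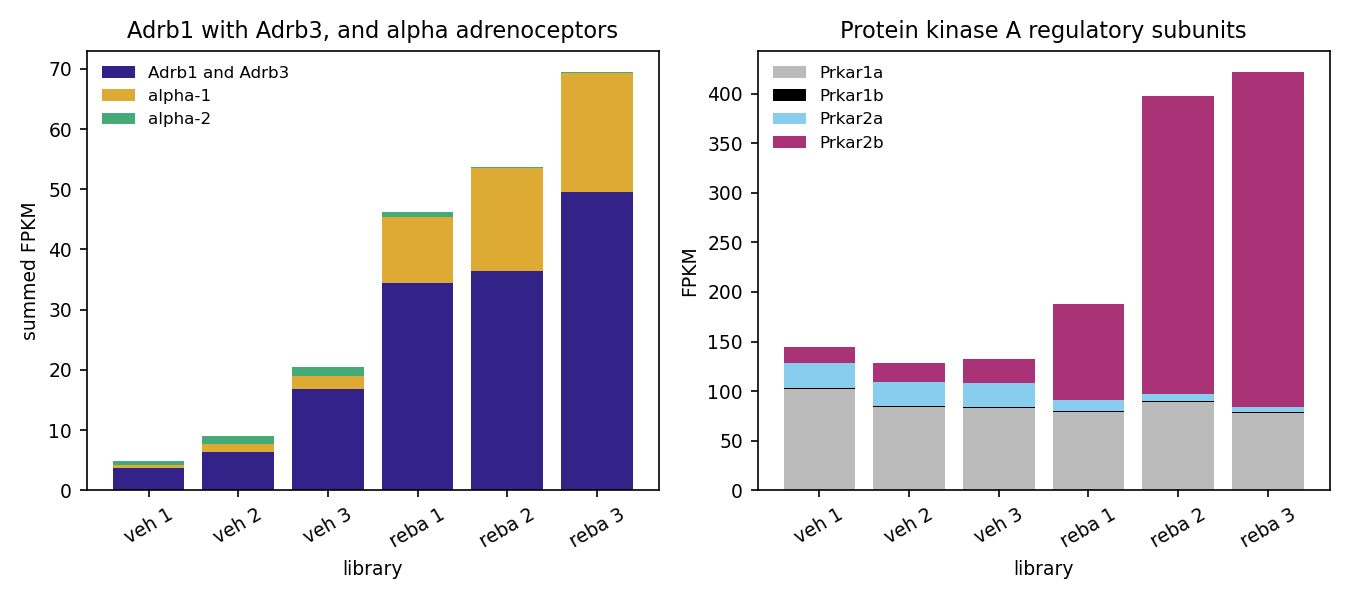
Stacked bars of FPKM in each library (veh, vehicle; reba, rebamipide), on the left for Adrb1 with Adrb3, the alpha-1 and the alpha-2 adrenoceptors and on the right for the 4 regulatory subunits of protein kinase A. The alpha-1 part is at most 2.07 FPKM in vehicle and at least 10.9 FPKM in rebamipide libraries, and Prkar2b, a minor part of the vehicle libraries at 16.3 to 24.2 FPKM, is the largest in the rebamipide libraries at 96.5 to 338 FPKM.

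On the nerve side, the list of sympathetic nerve and catecholamine-handling genes held 10 genes, of which 6 were tested, 2 were called higher and 0 lower. Both act in the uptake or breakdown of catecholamines and are made outside nerve endings as well. Slc22a3, an extraneuronal monoamine transporter, went from 11.5 ± 6.1 to 86.9 ± 29.4 CPM (log2 fold change 2.92, SE 0.49). Maob, a monoamine oxidase, had a log2 fold change of 2.19 (SE 0.53). Th, the rate-limiting enzyme of catecholamine synthesis, was at 1.00, 3.21 and 7.10 CPM in vehicle and 4.67, 0.701 and 0.0763 CPM in rebamipide libraries and was not called (edgeR adjusted p = 0.574), and Dbh had 0 counts in all 6 libraries. The median log2 fold change of the tested genes was -0.48. Slc18a2 (-1.57, edgeR adjusted p = 0.072) was lower in every rebamipide library than in any vehicle library but was not called. Slc6a2 (-0.93) and Maoa (-0.03) were not called either. The cell bodies of sympathetic neurons lie in ganglia outside the skin.

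Between receptor and cAMP, 7 of 19 G proteins and adenylyl cyclases were called higher and 2 lower. Adcy3, an adenylyl cyclase of adipocytes, had 12.9, 8.83 and 9.34 CPM in vehicle and 72.2, 309 and 189 CPM in rebamipide libraries (log2 fold change 4.19, SE 0.58). Adcy6 went from 37.5 ± 8.1 to 276 ± 114 CPM (log2 fold change 2.88, SE 0.41), and Adcy4 and Adcy9 were called higher too. Gnao1 (log2 fold change 3.29, SE 0.39) and Gna11 (1.43, SE 0.20), an inhibitory-class and a Gq-class alpha subunit, were higher. Gnai3, an inhibitory alpha subunit, fell from 179 ± 4 to 44.8 ± 11.8 CPM, and Gna14 fell from 6.48 ± 1.72 to 1.46 ± 0.33 CPM. Gnai2, the inhibitory subunit with the highest level, was at 207 ± 35 and 220 ± 40 CPM. Gnas, the stimulatory alpha subunit, was listed at only 1.56 to 5.13 CPM in vehicle and 24.7 to 52.4 CPM in rebamipide libraries (edgeR adjusted p = 0.0141). It was named after its values were seen, because it is the partner of the beta receptors, and it lies in a locus with overlapping transcripts on both strands, so its level is uncertain.

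Prkar2b encodes RII-beta, the main regulatory subunit of protein kinase A in fat. It lies on chromosome 12 from 32008475 to 32111295 on the minus strand (ENSMUSG00000002997). It had 46.6, 55.7 and 72.9 CPM in vehicle and 380, 1468 and 1634 CPM in rebamipide libraries. Rebamipide replicate 1 was far below the other two and still above every vehicle library. The mean rose from 58.4 ± 13.4 to 1160 ± 681 CPM, 19.9-fold, with a log2 fold change of 4.31 (SE 0.63) and an edgeR adjusted p of 0.0113.

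Within the 4 regulatory subunits the share of Prkar2b in FPKM was 11.3%, 14.7% and 18.2% in vehicle and 51.5%, 75.6% and 80.0% in rebamipide libraries. The groups were well apart, by 54.3 percentage points on average, with an exact two-sided permutation p of 0.1, the smallest that 3 against 3 allows, and of 0.3 after adjustment over the 3 shares tested. Prkar1a, the regulatory subunit of most tissues, was at 312 ± 30 and 443 ± 76 CPM (edgeR adjusted p = 0.15), and Prkar2a fell from 128 ± 4 to 59.5 ± 17.2 CPM (log2 fold change -1.10, SE 0.25, edgeR adjusted p = 0.0293). The 14 other genes of this list are subunits, anchoring proteins and the kinase inhibitors Pkia, Pkib and Pkig. Of them, 2 were called higher and 2 lower, and a count of 2 is close to the 14.1% of all genes that were higher. The inhibitors were not called, with log2 fold changes of -1.47, -2.34 and -0.205. Prkaca, the main catalytic subunit, rose from 95.6 ± 6.9 to 502 ± 131 CPM and Akap1, which anchors the kinase at mitochondria, from 45.3 ± 8.1 to 567 ± 182 CPM. The second gene that was lower was Akap11 (log2 fold change -1.06, SE 0.28). In summed FPKM, the regulatory subunits exceeded the catalytic subunits in every library, with 144, 128 and 133 FPKM against 55.7, 58.7 and 60.6 FPKM in vehicle and 188, 397 and 422 FPKM against 141, 176 and 195 FPKM in rebamipide libraries.

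Pde3b is the phosphodiesterase through which insulin lowers cAMP in adipocytes. It lies on chromosome 7 from 114014516 to 114138486 on the plus strand (ENSMUSG00000030671). The vehicle libraries held 15.8, 32.5 and 56.8 CPM and the rebamipide libraries 85.8, 364 and 456 CPM. Rebamipide replicate 1 was much closer to vehicle replicate 3 than to the other rebamipide libraries. The mean rose from 35.0 ± 20.6 to 302 ± 193 CPM, with a log2 fold change of 3.11 (SE 0.76) and an edgeR adjusted p of 0.0372. Its share of the 16 cAMP phosphodiesterases in FPKM was 12.2%, 14.6% and 17.5% in vehicle and 16.7%, 28.7% and 36.6% in rebamipide libraries, which overlapped (exact two-sided permutation p = 0.2, adjusted 0.3). Of the 15 other phosphodiesterases, 14 were tested, 4 were called higher and 1 lower. Pde4a (log2 fold change 3.30, SE 0.55), Pde4d (2.75, SE 0.56) and Pde8a (2.20, SE 0.45), which hydrolyse only cAMP, were higher, as was Pde1b (1.95, SE 0.37), a calmodulin-dependent enzyme, and Pde7a was lower (-1.28, SE 0.25).

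A list of 13 genes held receptor kinases, arrestins and regulators of G protein signaling, and also Gpr3 and Gpr119, receptors that raise cAMP and were not tested. Of the 11 tested, 4 were called higher and 0 lower. Grk3, a kinase that desensitizes adrenoceptors, went from 10.4 ± 4.9 to 179 ± 84 CPM, Rgs2 from 34.0 ± 3.7 to 209 ± 102 CPM and Rgs7 from 2.13 ± 1.68 to 38.8 ± 16.2 CPM, and Grk5 was the fourth gene called. Arrb1, the arrestin with the highest level, was at 108 ± 46 and 128 ± 12 CPM and was not called.

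Downstream of cAMP, 7 of 21 regulators and lipolysis targets were called higher and 1 lower. Ucp1 and Plin1 of this list are on the brown adipocyte and the adipocyte marker list as well. Beside Ucp1, the lipases Pnpla2 and Lipe, which start and continue the breakdown of triglyceride, rose from 214 ± 111 to 3185 ± 1096 CPM and from 93.8 ± 35.7 to 779 ± 152 CPM. G0s2, an inhibitor of Pnpla2, was called higher in the same list (log2 fold change 3.19). Creb1, the transcription factor that protein kinase A phosphorylates, fell from 30.7 ± 3.8 to 11.3 ± 3.3 CPM (log2 fold change -1.44, SE 0.29, edgeR adjusted p = 0.0228). Ppargc1a, a coactivator induced by cold through cAMP, was at 3.56, 9.70 and 12.8 CPM in vehicle and 15.0, 63.6 and 49.99 CPM in rebamipide libraries and missed the threshold (edgeR adjusted p = 0.0594), and the immediate early gene Nr4a1 was at 64.0 ± 66.6 and 74.2 ± 40.6 CPM. G0s2, Ppargc1a and Nr4a1 were chosen after their values were seen.

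Of 18 other receptors, most of them coupled to cAMP, 16 were tested, 6 were called higher and 1 lower. The 6 include Npr1, a natriuretic peptide receptor that makes cGMP and not cAMP. Adora1 (log2 fold change 4.20, SE 0.62) and Adora2a (3.77, SE 0.46), adenosine receptors that inhibit and stimulate adenylyl cyclase, and the lactate receptor Hcar1 (2.98, SE 0.46) were higher. Adora1 shares 2010 bases with the antisense gene Mybph. Mc5r, a melanocortin receptor of sebaceous glands, fell from 16.8 ± 6.6 to 2.29 ± 0.64 CPM. Ptger4, the prostaglandin receptor EP4 that the study examined as a target of rebamipide, was at 22.8 ± 9.3 and 15.7 ± 2.4 CPM and was not called (log2 fold change -0.54, SE 0.35, edgeR adjusted p = 0.294). Ptger4 and Npr1 were named after their values were seen.

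**Figure D3:**
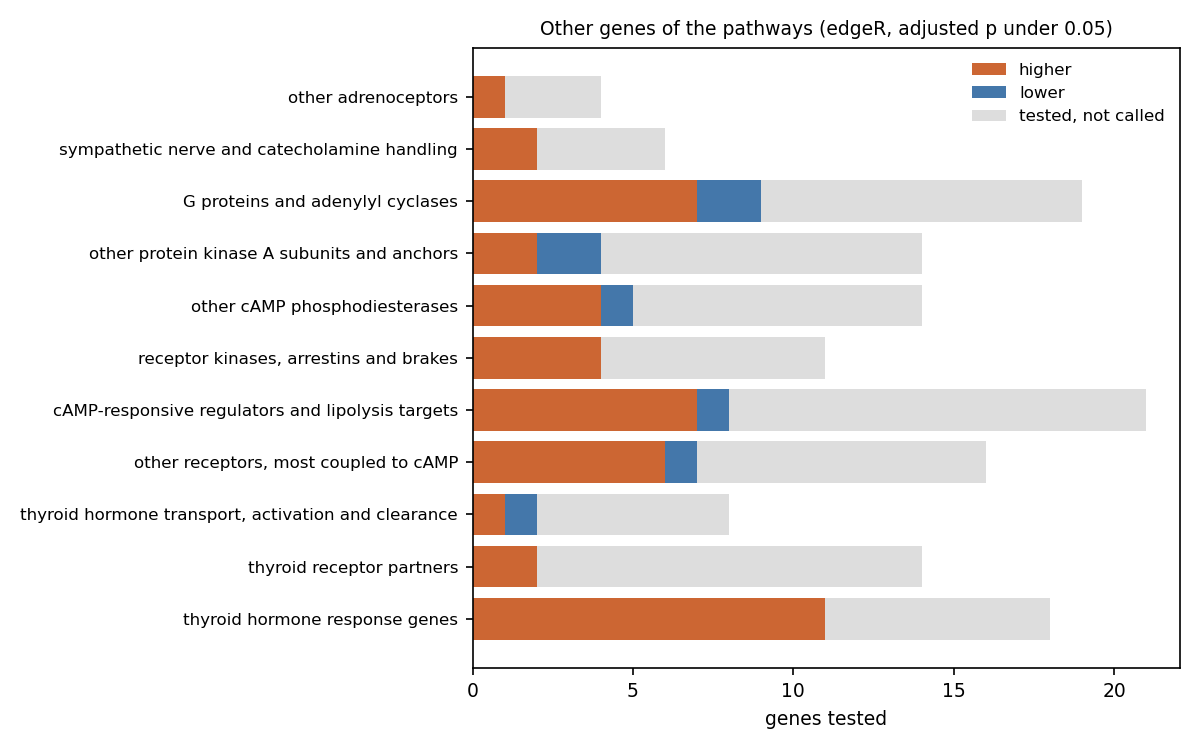
Numbers of genes called higher (orange), called lower (blue) and tested without a call (grey) in each of the 11 lists of other pathway genes, by edgeR at an adjusted p under 0.05. Over all lists 47 genes were higher and 8 lower of 145 tested, and the thyroid hormone response genes have the most higher calls, 11 of 18. That list does not give the direction in which the hormone acts on each gene.

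Over the 11 lists together, 47 of 145 tested genes were called higher and 8 lower, the median log2 fold change being 0.54, against 14.1% higher, 6.51% lower and a median of -0.18 over all genes. The lower calls thus made up about the same share as over all genes. The lists and the 9 genes were chosen with results of these data known, so their counts are not independent evidence of a direction. DESeq2 called 56 of these genes higher and 16 lower, where it called 18.3% of all genes higher and 17.0% lower. Total counts alone gave 41 higher and 22 lower, with 8.46% and 25.2% of all genes. Limma on log2(FPKM + 1) gave 44 higher and 26 lower, with 9.42% and 32.3% of all genes. Slow muscle markers as a covariate gave 44 higher and 13 lower, with 11.8% of all genes in each direction. The number of lower calls thus depended on the scaling and on the tool, in the lists as over all genes. Adcy3, Grk5, G0s2, Ptger4, Ncor1 and Atp2a1 each overlap an antisense gene in the table, and the strand setting of the counting is not given in the sources used here. Cenpo, opposite Adcy3, was at 4.70 to 8.97 CPM and Rabep2, opposite Atp2a1, at 7.47 to 10.1 CPM over the 6 libraries. Lamb3, opposite G0s2, was lower in rebamipide libraries (log2 fold change -1.29, SE 0.33, edgeR adjusted p = 0.0417). Ttc33, opposite Ptger4, was at 15.8 to 27.7 CPM, a level close to that of Ptger4. Ttc19, opposite Ncor1 over 12026 bases, was higher (log2 fold change 1.17, SE 0.29, edgeR adjusted p = 0.0386), and Zfp950, opposite Grk5 over 42129 bases, was lower (-1.18, SE 0.32, edgeR adjusted p = 0.0462).

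Dio2 lies on chromosome 12 from 90691326 to 90705812 on the minus strand (ENSMUSG00000007682), and it was the least even of the 7 genes called. The vehicle libraries held 6.12, 3.21 and 9.11 CPM and the rebamipide libraries 9.78, 149 and 68.3 CPM. Rebamipide replicate 1 stood barely above vehicle replicate 3, and the SD of the rebamipide group, 69.7 CPM, was nearly as large as its mean of 75.5 CPM. The log2 fold change was 3.62 (SE 0.98) with an edgeR adjusted p of 0.0484. On all libraries it missed the threshold with a replicate block (adjusted p = 0.16), in limma-voom (0.115) and limma on log2(FPKM + 1) (0.0883), with fast (0.081) and slow (0.0668) muscle markers as a covariate, with total counts (0.0533), without the expression filter (0.0526) and with upper quartile scaling (0.0508). It passed in DESeq2 (2.85e-04), with at least 10 counts in every library (0.0333), with RLE scaling (0.0483) and without genes of the mitochondrial genome (0.0484). With each library left out in turn, edgeR called it only without rebamipide replicate 1 (0.012), and the adjusted p was 0.0788 to 0.159 in the other fits.

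Dio3, the deiodinase that inactivates thyroid hormones, did not pass the expression filter. It had 188, 180 and 10 reads in the vehicle libraries and 5, 2 and 0 reads in the rebamipide libraries, against 306, 158 and 426 and 297, 3811 and 1789 reads of Dio2. The reads of Dio3 were high in the 2 vehicle libraries with 12610 CPM or more of growing hair follicle markers and low in all others. Because rebamipide replicate 3 had no read of Dio3, which allows up to 3 reads or 0.114 CPM by counting error, the ratio of the 2 enzymes was not tested.

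Of 14 genes of thyroid hormone transport, activation and clearance, 8 were tested, 1 was called higher and 1 lower. Slc16a10, a plasma membrane transporter of thyroid hormones and aromatic amino acids, went from 23.2, 27.6 and 31.0 CPM in vehicle to 53.9, 80.4 and 74.1 CPM in rebamipide libraries (log2 fold change 1.35, SE 0.23, edgeR adjusted p = 0.0146). Wsb1, a ubiquitin ligase subunit that inactivates the Dio2 protein, fell from 45.2 ± 0.7 to 21.8 ± 3.9 CPM (log2 fold change -1.06, SE 0.20, edgeR adjusted p = 0.0197). Marchf6, another ligase of that enzyme, was at 132 ± 21 and 207 ± 49 CPM and was not called. Crym, a cytosolic binding protein of triiodothyronine, held 281, 201 and 3.95 CPM in vehicle and 7.24, 0.390 and 0 CPM in rebamipide libraries and was not called (edgeR adjusted p = 0.101).

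Thra encodes the thyroid hormone receptor alpha and lies on chromosome 11 from 98631464 to 98659832 on the plus strand (ENSMUSG00000058756). Its level was 66.5, 59.9 and 66.1 CPM in vehicle and 114, 124 and 156 CPM in rebamipide libraries. Both groups were tight and did not overlap. The mean rose from 64.2 ± 3.7 to 131 ± 22 CPM, with a log2 fold change of 1.03 (SE 0.19) and an edgeR adjusted p of 0.0178. With total counts alone the log2 fold change was 0.40 and the adjusted p 0.0974, so the call rests on the scaling. The 3′ end of Thra overlaps the antisense gene Nr1d1 by 1075 bases, and the strand setting of the counting is not given in the sources used here. Nr1d1 was at 18.4, 62.9 and 71.4 CPM in vehicle and 130, 68.0 and 151 CPM in rebamipide libraries (log2 fold change 1.19, SE 0.56, edgeR adjusted p = 0.161).

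Thrb, the thyroid hormone receptor beta on chromosome 14 from 4431611 to 4809435 on the minus strand (ENSMUSG00000021779), was at 9.60, 18.3 and 17.0 CPM in vehicle and 17.2, 33.7 and 36.3 CPM in rebamipide libraries. Rebamipide replicate 1 lay within the vehicle range and the others above it. The log2 fold change of 0.96 (SE 0.39) was close to that of Thra, but its edgeR adjusted p was 0.123. Without rebamipide replicate 1 it was 1.23 with an adjusted p of 0.0449. Thra held 91.7%, 84.0% and 86.2% of the FPKM of both receptors in vehicle and 91.4%, 85.5% and 87.3% in rebamipide libraries, a difference of 0.761 percentage points (exact two-sided permutation p = 0.8). This difference changed sign without vehicle replicate 2 (-0.90) or without rebamipide replicate 1 (-0.92).

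Of 14 partners of these receptors, 2 were called higher and 0 lower, a share of higher calls close to the 14.1% of all genes. Rxrg, a heterodimer partner found in muscle and fat, went from 8.13 ± 5.66 to 50.2 ± 13.0 CPM (log2 fold change 2.62, SE 0.58), and Rxrb from 29.6 ± 4.1 to 50.6 ± 6.8 CPM (0.77, SE 0.20). In FPKM the groups of Rxrb overlapped, at 11.0, 8.20 and 8.61 in vehicle and 10.3, 9.38 and 11.0 in rebamipide libraries. Rxra, the partner with the highest level, was at 203 ± 19 and 177 ± 24 CPM, and Ncor1, a corepressor of the unliganded receptor, at 131 ± 17 and 119 ± 30 CPM. Of 19 genes listed as responding to thyroid hormone in some tissue, 18 were tested, with a median log2 fold change of 2.78. Of these, 11 were called higher and 0 lower, against 14.1% and 6.51% of all genes. The list does not give the direction in which the hormone acts on each gene, so these counts do not measure a hormone response. Pck1 (log2 fold change 5.90, SE 0.71), Gpd2 (4.51, SE 0.56), Acaca (2.82, SE 0.38) and Fasn (2.74, SE 0.55) were higher, and they act in glyceride synthesis, the glycerol phosphate shuttle and fatty acid synthesis. Pck1 is on the adipocyte marker list as well, and Myh7, the slow myosin heavy chain, which was another of the 11 (log2 fold change 8.72, SE 1.60), is on the slow muscle marker list. Myh7 was chosen for that overlap after its values were seen. Hr, the hairless corepressor that responds to the hormone in brain and skin, had 252, 277 and 180 CPM in vehicle and 103, 46.9 and 20.7 CPM in rebamipide libraries and missed the threshold in the other direction (edgeR adjusted p = 0.0538). Klf9, a direct target in many tissues, was at 66.7 ± 39.2 and 133 ± 77 CPM (edgeR adjusted p = 0.304). Hr and Klf9 were named after their values were seen, and Atp2a1, the muscle calcium pump, was at 3644 ± 2501 and 3020 ± 3995 CPM.

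By FPKM the 9 genes formed a different order in each group. In vehicle skin Prkar2b (19.8 ± 4.0 FPKM) and Thra (17.3 ± 1.2) led, followed by Adrb3 (8.50 ± 6.84), Pde3b (4.72 ± 2.68), Thrb (2.50 ± 0.74), Dio2 (1.19 ± 0.55), Adra2a (0.878 ± 0.276), Adrb1 (0.518 ± 0.082) and Adra1a (0.343 ± 0.201). Each neighbouring pair in that order overlapped between libraries. In rebamipide-treated skin the order was Prkar2b (245 ± 130 FPKM), Adrb3 (34.6 ± 7.3), Pde3b (25.4 ± 15.0), Thra (22.9 ± 2.8), Adra1a (11.8 ± 4.3), Dio2 (8.91 ± 7.97), Adrb1 (5.56 ± 1.80), Thrb (3.09 ± 0.82) and Adra2a (0.292 ± 0.373). Here Prkar2b was apart from Adrb3, Thra from Adra1a and Thrb from Adra2a, and the other neighbours overlapped. Adra1a thus stood last of the 9 in vehicle and at rank 5 in rebamipide-treated skin.

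The mean of the adipocyte list was higher in the rebamipide libraries by 2.06 on the log2 scale. Each gene was therefore also set against this list and against the brown adipocyte list within its own library. The 12 adipocyte markers did not move alike, with 7 called higher and log2 fold changes from -0.53 (Lep) to 5.90 (Pck1). Retn (-0.23) also lay in the other direction, and Lep, Retn, Cfd (0.34), Lpl and Car3 were not called. Relative to the mean log2 CPM of the adipocyte list, Adra1a was higher by 3.46, Prkar2b by 2.01, Adrb1 by 1.53 (0.80 with a pseudocount of 2 in place of 0.5 CPM) and Adrb3 by 0.84, without overlap between groups. Pde3b (0.90) and Dio2 (0.88) overlapped. Thra (-1.04), Thrb (-1.14) and Adra2a (-3.31) were lower relative to the list in every rebamipide library than in any vehicle library. Single libraries moved some of these values. Dio2 ranged from 0.04 without rebamipide replicate 2 and 0.46 without vehicle replicate 2 to 1.34 without vehicle replicate 1 and 1.84 without rebamipide replicate 1. Pde3b ranged from 0.58 without rebamipide replicate 3 and 0.60 without rebamipide replicate 2 to 1.51 without rebamipide replicate 1, and Thra was at -0.60 without vehicle replicate 1. The exact two-sided permutation p was 0.1 for the 7 genes without overlap, 0.4 for Pde3b and 0.6 for Dio2, and 0.129 at best after adjustment over the 9 genes, so none can pass with 3 libraries a group.

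The brown adipocyte list was used without Ucp1 here, since its 0 counts in the vehicle libraries let the pseudocount of 0.5 CPM set its change. This was chosen after the values were seen, and without Ucp1 the list was higher in the rebamipide libraries by 3.18 on the log2 scale. Relative to it Adra1a was higher, by 2.34 without overlap, and Adra2a (-4.43), Thra (-2.17) and Thrb (-2.27) were lower in every rebamipide library than in any vehicle library. The groups overlapped for Prkar2b (0.88), Adrb1 (0.41), Pde3b (-0.23), Dio2 (-0.25) and Adrb3 (-0.28). The exact two-sided permutation p was 0.1 for the 4 genes without overlap and 0.225 after adjustment over the 9 genes. The differences of Adrb3, Pde3b and Dio2 from the list thus had another sign than against the adipocyte list, and for Adrb1 and Prkar2b the sign against the brown list turned negative when Ucp1 was kept in it.

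**Figure D4:**
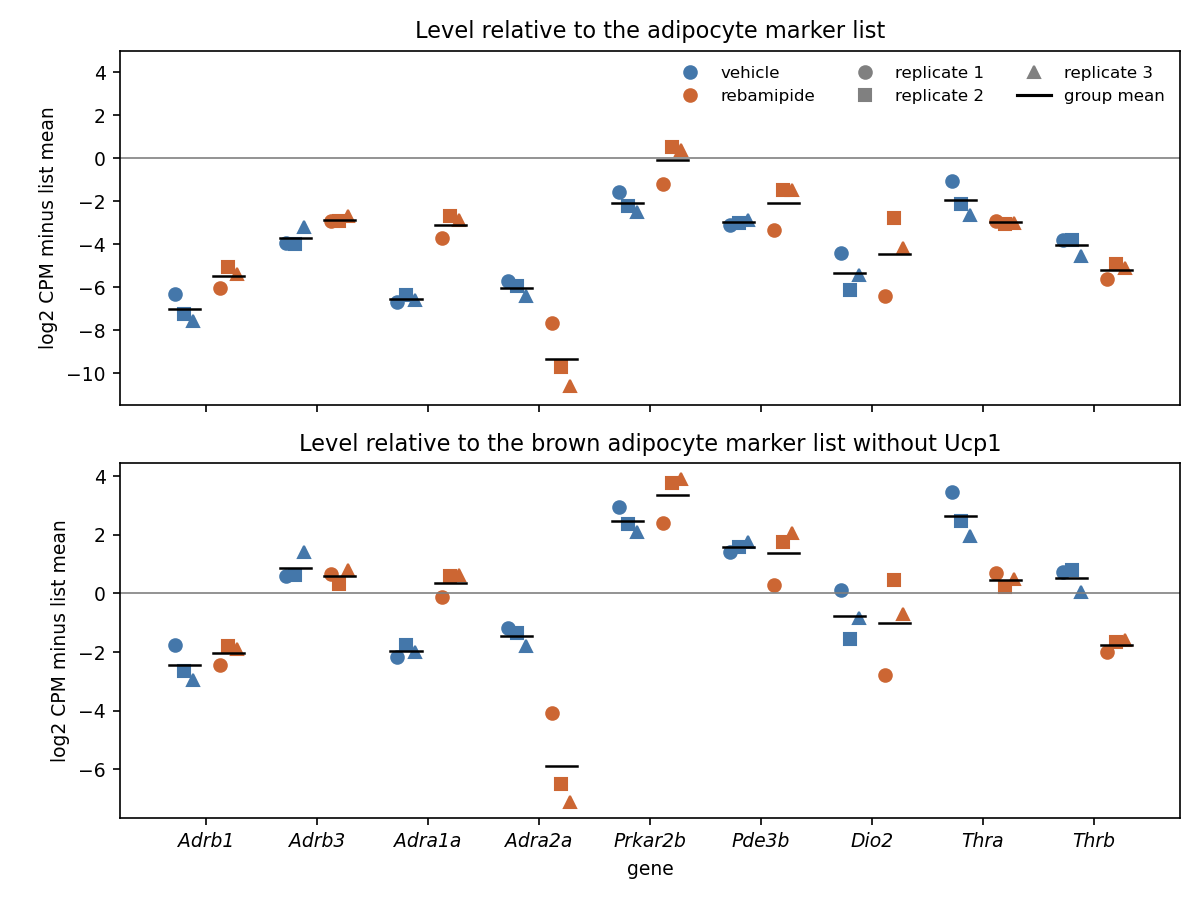
Log2 CPM of each gene minus the mean log2 CPM of the adipocyte marker list (top) or of the brown adipocyte marker list without Ucp1 (bottom) in the same library, with a point for each library (blue vehicle, orange rebamipide) and a black line at the group mean. Adra1a is higher in rebamipide libraries in both panels, by 3.46 and 2.34 on average, and Adra2a is lower, with differences of -3.31 and -4.43.

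Across the 6 libraries, some genes followed the 9 almost exactly, as measured by Pearson's r of log2 CPM among 13378 tested genes with a mean of at least 50 counts. With so few points, which share the group difference and the cell makeup of each library, a high r is a description only. Adra1a was closest to Sdhc, Acadm and Decr1 (r = 0.9998, 0.9997 and 0.9997), which encode a subunit of mitochondrial succinate dehydrogenase and enzymes of fatty acid oxidation. Adrb1 was closest to Oxnad1, Cluh and Sfxn4 (0.9997 each), of which Sfxn4 is a mitochondrial protein and Cluh binds the mRNAs of such proteins. Adrb3 was closest to Acp5, Aldh2 and Adipoq (0.9989, 0.9982 and 0.998), the last being the adipocyte hormone adiponectin, and Prkar2b to Zadh2, Rfk and Chp1 (0.9997, 0.9995 and 0.9995). Pde3b followed Lrch3, Dram2 and Sh3glb1 (0.9992, 0.9991 and 0.9986), and Adra2a followed Mmp2, a matrix metalloproteinase of fibroblasts, with Cotl1 and Klhl8 (0.999, 0.9987 and 0.9984). The closest were Golph3, Zfand2a and Dennd10 for Dio2 (0.9973, 0.9907 and 0.9903), Polr2i, Alg2 and Tmem222 for Thra (0.997, 0.997 and 0.9969) and Fut8, Mterf2 and Uggt2 for Thrb (0.9958, 0.995 and 0.991).

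The calls were then examined with each library left out in turn. Without vehicle replicate 2 or without rebamipide replicate 2, edgeR called 0 of the 9 genes, against 0 and 1 (0.00652%) of all genes. In both fits 7 of the 9 had an unadjusted p under 0.05, as did 27.5% and 26.5% of all genes. Without rebamipide replicate 3, the library with the least epidermal RNA, it called Adrb1 (log2 fold change 3.93), Adra1a (5.53) and Prkar2b (3.99) higher (6.6% of all genes higher), and the adjusted p of Adrb3, Pde3b, Dio2 and Thra was 0.0746, 0.0738, 0.0788 and 0.0614. Without vehicle replicate 1 it called 4 (10% of all genes) and without vehicle replicate 3 it called 6 (11.4%). Without rebamipide replicate 1 it called 8 higher and 1, Adra2a, lower, with 18.3% of all genes higher and 12.8% lower. DESeq2 called Adrb1, Adrb3, Adra1a, Prkar2b, Pde3b, Dio2 and Thra higher on all libraries, where 18.3% of all genes were called higher, and in each of its 6 such fits. In those it called 23.8%, 17.5% and 13.3% of all genes higher without rebamipide replicates 1, 2 and 3 and 20.7%, 14% and 22.6% without vehicle replicates 1, 2 and 3. With fast muscle markers as a covariate edgeR called 4 of the 9 genes higher, and 10% of all genes. The calls lost were those of Adrb3 (log2 fold change 2.57, adjusted p = 0.0625), Pde3b (2.55, adjusted p = 0.0772) and Dio2 (3.37, adjusted p = 0.081). The sign was positive for 8 genes and negative for Adra2a in every fit of either tool that included them.

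**Figure D5:**
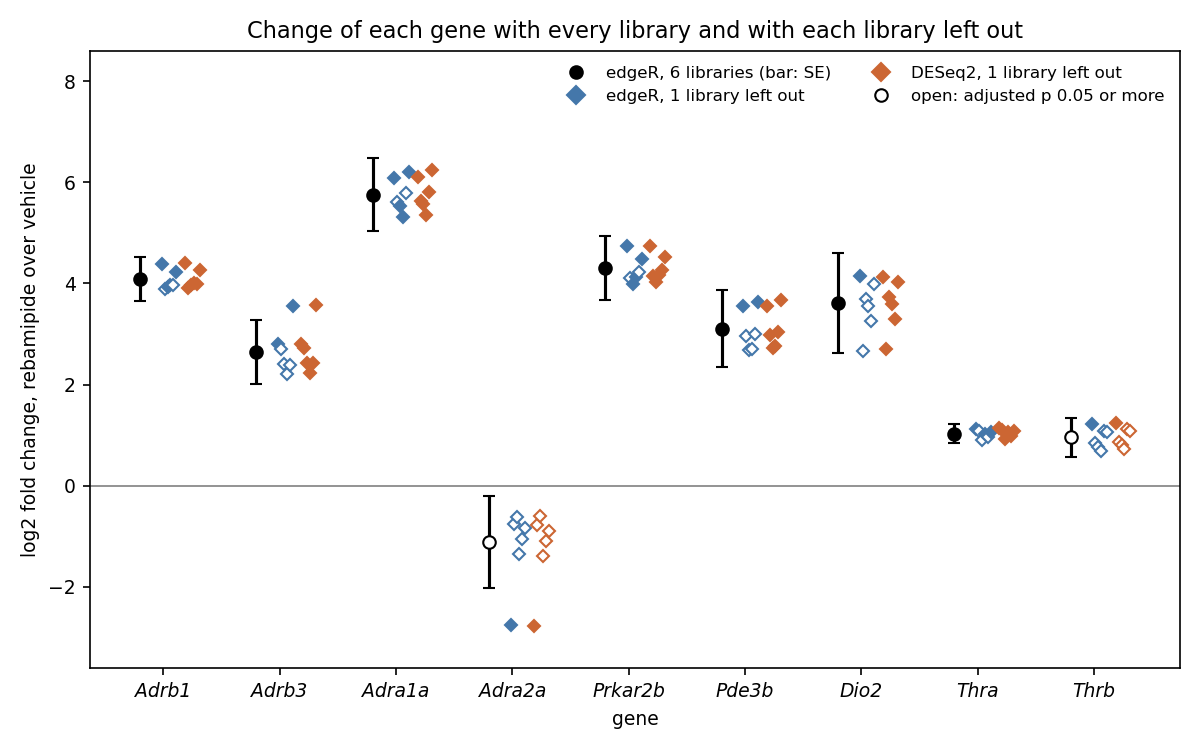
Log2 fold change of rebamipide over vehicle for each gene, by edgeR on all 6 libraries (black, bar for the SE) and by edgeR (blue) and DESeq2 (orange) with each library left out in turn; open symbols did not reach an adjusted p under 0.05. Adrb1 ranges from 3.89 to 4.39 and Dio2 from 2.67 to 4.14 in the edgeR fits, and Adra2a reaches -2.76 without rebamipide replicate 1.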

How the data were processed

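RNA-seq of poly-A RNA from 3 vehicle-treated and 3 rebamipide-treated mice was used. The authors deposited whole read counts per gene without normalization, and the deposited FPKM equal these counts per gene length and summed counts of the library (largest relative deviation 5.1e-14). The submitters' processing notes name fastp 0.22.0, HISAT2 2.1.0, HTSeq 0.9.1 and GRCm39, without their settings. Gene positions are those of the deposited table. Promoter letters are from RefSeq on GRCm38.p6 and were not mixed with them. Columns were assigned to samples by their names, with 0 columns of per-sample values left over.

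Counts were tested in R 4.3.3 with edgeR 4.0.16 (TMM, filterByExpr, quasi-likelihood test) on the whole table, with Benjamini-Hochberg adjustment over 14875 genes and a threshold of 0.05 on the adjusted p. FPKM shares and log2(CPM + 0.5) relative to marker lists were compared by two-sided exact permutation over libraries. Adjusted p-values printed without a tool are edgeR's. Within each group replicates differed by far more than sampling noise. By the study's description the libraries came from separate mice. Alternatives were DESeq2 1.42.0, limma-voom and limma (3.58.1) on log2(FPKM + 1), other scalings and filters, muscle covariates, a replicate block and each library left out.

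Beside the 9 genes, the text names, list by list, the 3 or fewer called genes of smallest p in each direction and the 2 with the highest mean CPM, and for each of the 9 the 3 genes of highest correlation. Most exceptions are stated in the text. Th, Dbh, Slc18a2, Slc6a2, Maoa, Adra2b, Adra2c, Adcy4, Adcy9, Pkia, Pkib, Pkig, Grk5, Gpr3, Gpr119, Dio3 and Plin1 and the genes that overlap a named gene were also named outside this rule after their values were seen. Genes of marker lists are examples. Some pathway genes and what needs them are not reported here. The 9 genes and the lists were chosen with earlier results of these data known. Intervals and limits from 3 reads cover counting error only. Further experiments of the study were not used here.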

Additional observations from a re-analysis of the deposited data

How the results depend on the processing

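With 3 libraries a group, edgeR's calls depended on single libraries. Leaving out each library in turn gave 0 to 8 of the 9 genes higher and 0 to 1 lower over the fits of both tools, 0 to 71 of the other pathway genes higher (71 by DESeq2 without vehicle replicate 3, with 22.6% of all genes higher) and 0 to 27 lower (27 by DESeq2 without rebamipide replicate 1, with 27.3% of all genes lower), and a difference in the share of Thra from -0.9165 to 2.98 percentage points, negative without vehicle replicate 2 (-0.8957) or rebamipide replicate 1 (-0.9165). Over all genes edgeR called 3061, against 5253 by DESeq2, 5010 with total counts alone and 6210 by limma on log2(FPKM + 1), and with a library left out 0 to 4781 by edgeR and 3516 to 7846 by DESeq2.

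Of the 9 genes, 4 were called higher with fast muscle markers as a covariate (10% of all genes) and 5 to 7 under the other alternatives with all libraries, which called 8.46% (total counts alone, 5 of the 9) to 18.3% (DESeq2, 7 of the 9) of all genes higher. Of the other pathway genes, 16 were lower by DESeq2 (17.0% of all genes), 26 by limma on log2(FPKM + 1) (32.3%), 13 with slow muscle markers as a covariate (11.8%) and 22 with total counts alone (25.2%), against 8 (6.51%), so lower calls rose over all genes too. The causes were not tested.

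No pairing by replicate number was seen: deviations of same-numbered libraries correlated at -0.073, -0.028 and -0.039, and no library correlated best with its own number. With 3 libraries a group this cannot exclude a pairing. With a replicate block 6 of the 9 genes were called higher and 0 lower, and 44 of the other pathway genes were higher and 8 lower, with 9.63% of all genes higher and 5.75% lower. The call lost was that of Dio2.

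Against the brown list without Ucp1 in place of the adipocyte list, an alternative chosen after seeing the data, the relative level changed sign for Adrb3 (-0.282), Pde3b (-0.228) and Dio2 (-0.248), and moved for Adrb1 (0.406), Prkar2b (0.882), Adra1a (2.342), Thra (-2.166) and Thrb (-2.267). With Ucp1 in the brown list, whose vehicle level is the pseudocount alone, it was -0.607 for Adrb1, -1.295 for Adrb3, -1.241 for Pde3b, -0.131 for Prkar2b, -1.261 for Dio2, 1.329 for Adra1a, -5.447 for Adra2a, -3.179 for Thra and -3.28 for Thrb. A pseudocount of 2 gave 0.796 for Adrb1 and 2.806 for Adra1a.

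Among genes that were not called, the log2 fold change changed sign with total counts alone for Gnai2 (-0.5), Prkar1a (-0.13) and Arrb1 (-0.352), by limma on log2(FPKM + 1) for the same genes (-0.524, -0.123 and -0.257), with slow muscle markers for Gnai2 (-0.1) and Ncor1 (0.12) and with fast muscle markers for Atp2a1 (0.132). With a library left out it spanned 0 for Gnai2 (-0.067 to 0.254), Arrb1 (-0.092 to 0.521), Ncor1 (-0.272 to 0.068) and Atp2a1 (-2.315 to 0.333).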
